A study of Mus musculus with 9 samples.

Results

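The Notch receptors, their ligands, the direct Notch targets and the Atoh1 secretory axis were followed as 10 genes in mouse intestinal stem cells. The genes were taken by name and matched to their Ensembl identifiers: the receptors Notch1 and Notch2, the ligands Dll1, Dll4 and Jag1, the targets Hes1, Hey1 and Nrarp, and the secretory factors Atoh1 and Gfi1. These 10 genes and all gene lists below were chosen with earlier results of these data known. Their counts beside the share of all tested genes are therefore descriptions and not tests. All 10 were among the 46517 genes of the count tables, and all 10 were among the 14870 genes with enough reads to be tested. Messenger RNA was sequenced from dissociated stem cells that had been embedded in 1 of 3 matrices and grown into colonies for 4 days, with 3 libraries per matrix. The matrices were a non-degradable polyethylene glycol (PEG) hydrogel, a degradable PEG hydrogel, and Matrigel, a basement membrane extract of a mouse tumour. All 9 cultures received R-spondin and noggin, which sustain stem cells by raising Wnt and lowering BMP signalling, and EGF. They also received CHIR99021, an inhibitor of the kinase GSK3, and valproic acid, an inhibitor of histone deacetylases that is used in such media as an activator of Notch signalling. No culture without these agents was analysed here, so every value below was measured under them.

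Notch signalling passes between touching cells. A Delta or Jagged ligand on one cell binds a Notch receptor on its neighbour, the receptor is cleaved, and its intracellular domain enters the nucleus and joins the DNA-binding protein RBPJ to switch on targets such as Hes1. In the intestinal crypt HES1 represses Atoh1, the factor that commits cells to the Paneth, goblet, enteroendocrine and tuft lineages. Cells that escape Notch activation express Atoh1, Dll1 and Dll4 and become secretory, while their neighbours remain stem cells or become absorptive.

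The stretch of 250 bases before the transcription start was read from the RefSeq promoter table (build GRCm38.p6), because HES proteins act at such sites. The table held 8 of the 10 genes, and Hes1 and Hey1 were not among them. The letters CACGNG, a pattern that includes the HES site CACGCG and the E-box CACGTG bound by several factor families, were searched on both strands. They were found in 23.5% of all 32841 promoter windows of this length. Among the 8 genes they occurred in the windows of 6, namely Notch2, Dll1, Dll4, Jag1, Nrarp and Atoh1, and were not found in those of Notch1 and Gfi1. The windows of 3 genes are printed because these genes stand at different points of the circuit: Atoh1 as the gene repressed by HES1, Dll4 as a ligand of the sending cell and Nrarp as a target in the receiving cell. Each is given 5′ to 3′ on the plus strand, on which all 3 genes lie, with CACGNG or its reverse complement in capitals.
Atoh1 (chr6:64728875-64729124): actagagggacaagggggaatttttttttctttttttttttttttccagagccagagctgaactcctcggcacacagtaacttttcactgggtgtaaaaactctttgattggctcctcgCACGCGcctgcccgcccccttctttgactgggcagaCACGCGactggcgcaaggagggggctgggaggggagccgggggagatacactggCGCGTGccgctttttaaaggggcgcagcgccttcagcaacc
Dll4 (chr2:119325534-119325783): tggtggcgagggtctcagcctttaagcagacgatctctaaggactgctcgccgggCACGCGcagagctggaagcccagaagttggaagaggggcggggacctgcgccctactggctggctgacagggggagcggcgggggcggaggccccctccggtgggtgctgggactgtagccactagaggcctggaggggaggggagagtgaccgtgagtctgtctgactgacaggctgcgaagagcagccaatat
Nrarp (chr2:25180508-25180757): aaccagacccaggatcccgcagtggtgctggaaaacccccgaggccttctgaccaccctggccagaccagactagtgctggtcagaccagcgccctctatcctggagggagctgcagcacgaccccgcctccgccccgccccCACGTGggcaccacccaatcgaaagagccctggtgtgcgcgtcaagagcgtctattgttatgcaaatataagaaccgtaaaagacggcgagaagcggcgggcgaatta
The Atoh1 window held 3 matches, which began 131, 95 and 41 bases before the start, and only 1.11% of all windows held 3 or more. The Dll4 match began 195 bases and the Nrarp match 108 bases before the start. The core of the RBPJ site, TGGGAA, was searched on both strands too, was found in 21.6% of all windows, and was not found in the windows of these 8 genes. A match describes the letters and is not evidence of binding.

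Each library held 38.0 M to 47.2 M reads assigned to genes, and the log2 fold changes had a median SE of 0.112. The labels do not say whether the 3 libraries of a matrix came from different cultures or animals, so p-values measure only the spread between these libraries, which may be technical. The 7 stem cell markers, such as Lgr5 and Olfm4, were all detected in each library, with summed levels of 2052 to 2161 CPM (reads of a gene scaled to the library size) in non-degradable PEG, 2429 to 2652 CPM in degradable PEG and 2981 to 3164 CPM in Matrigel. Most of these sums came from Smoc2 (1060 to 1987 CPM over all libraries) and Axin2 (424 to 711 CPM). Lgr5 stood at 128 to 227 CPM and Olfm4 at 17.3 to 87.1 CPM over all libraries. The 7 epithelial markers were also detected in each library and summed to 5352 to 6425 CPM in non-degradable PEG, 5833 to 6584 CPM in degradable PEG and 5028 to 5318 CPM in Matrigel. The 9 enterocyte markers summed to 736 to 887 CPM, 688 to 737 CPM and 683 to 758 CPM in the same order of matrices, mostly from Vil1, which is also on the epithelial list and stood at 510 to 707 CPM over all libraries. By gene, 3 enterocyte markers rose and 2 fell in non-degradable PEG (median log2 fold change 0.98) and 1 rose and 4 fell in degradable PEG (median -1.002), both against Matrigel (edgeR quasi-likelihood test). Of the 7 stem cell markers 1 rose and 4 fell in non-degradable PEG (median -0.30). In degradable PEG 1 of them rose and 1 fell (median -0.33). Beside these counts, 9.71% of all tested genes rose and 7.13% fell in non-degradable PEG, and 7.42% rose and 4.79% fell in degradable PEG. Between the PEG matrices 4 of the 9 enterocyte markers were called higher in the non-degradable one, with a median of 2.24, beside 0.814% of all tested genes. Of other tissues, Ptprc of blood cells, Cdh5 of endothelium, Col3a1 and Dcn of mesenchyme and Sox10 of glia had no count in any library. Other genes of these lists were counted in every library. Among them were Col1a1 (91 to 250 counts), Pdgfra (62 to 141), Itgam (59 to 145), Cd68 (46 to 104) and Ret (223 to 449). The 9 endothelial markers summed to 18.1 to 23.0 CPM over all libraries, nearly all of it Esam, and the lists of mesenchyme and of glia and neurons to at most 9.43 and 13.8 CPM. The blood cell list summed to 4.52 to 6.26 CPM in non-degradable PEG, 4.10 to 4.45 CPM in degradable PEG and 2.61 to 3.15 CPM in Matrigel. Of its 2 tested genes 1 rose in non-degradable PEG against Matrigel, beside 9.71% of all tested genes, and none passed in degradable PEG. Of 4 tested markers of glia and neurons 1 fell in each PEG matrix, beside 7.13% and 4.79% of all tested genes.

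Against Matrigel, the Notch target Hes1 rose in both PEG matrices while the ligand Dll4 and the secretory factor Gfi1 fell in both. The ligand Dll1 fell and the ligand Jag1 rose in non-degradable PEG. The receptors, the other Notch targets Nrarp and Hey1, and Atoh1 did not pass the test in any comparison. An adjusted p under 0.05 in edgeR's quasi-likelihood test, adjusted over all tested genes by the Benjamini-Hochberg method, counted as changed. In non-degradable PEG against Matrigel 5 of the 10 genes changed, 2 higher and 3 lower, where 16.8% of all tested genes changed, 9.71% higher and 7.13% lower. With the replicate number as a block 7 of the 10 changed there, beside 26.1% of all tested genes. In degradable PEG against Matrigel 3 of the 10 changed, 1 higher and 2 lower, where 12.2% of all tested genes changed, 7.42% higher and 4.79% lower. The libraries of non-degradable PEG and Matrigel did not overlap for 7 of the 10 genes, 3 higher and 4 lower, beside 43.4% of all tested genes, 21.8% higher and 21.6% lower. Those of degradable PEG and Matrigel did not overlap for 3, namely Hes1, which was higher, and Dll4 and Gfi1, which were lower, beside 30.4%, with 15.6% higher and 14.8% lower. The median log2 fold change of the 10 genes was -0.06 in each of these comparisons, beside -0.0021 and -0.0163 for all tested genes, so the calls ran in both directions. Both comparisons use the same 3 Matrigel libraries and are not independent of each other.

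**Figure D1:**
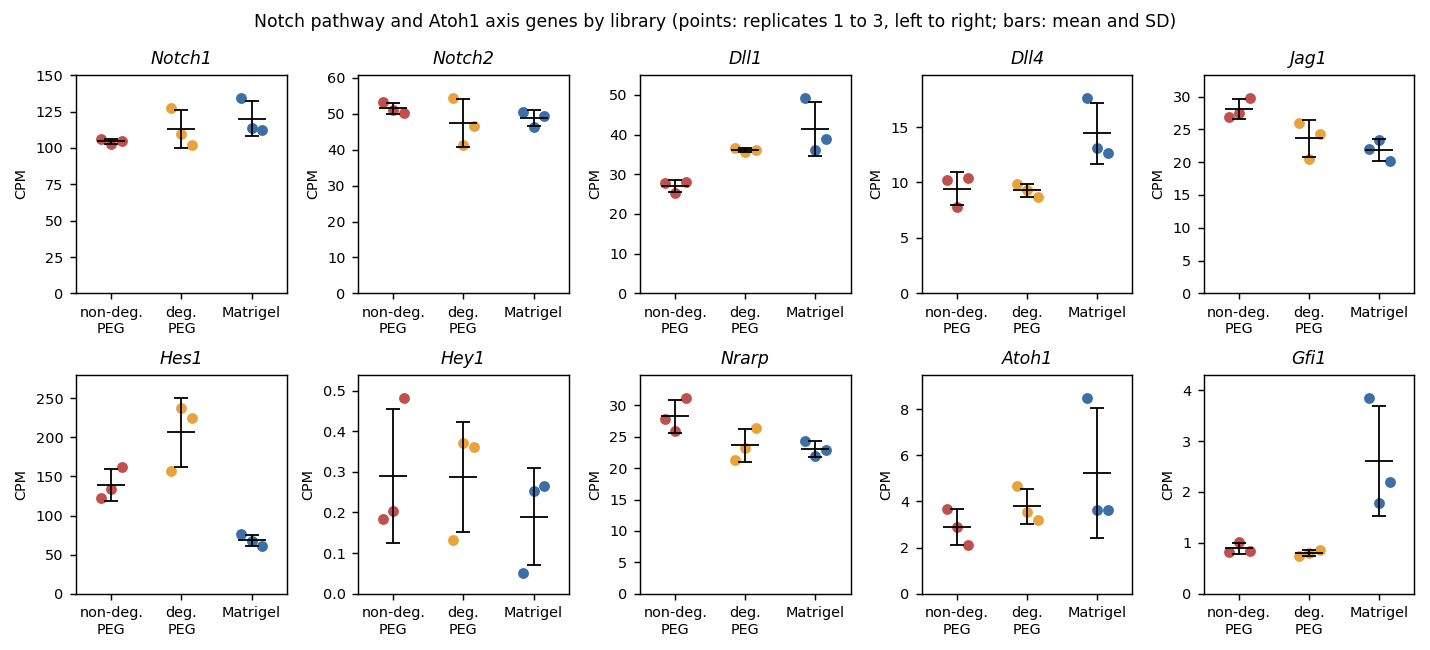
Level of each of the 10 genes in CPM by matrix, with 1 point per library and the mean and SD over 3 libraries as bar and whisker. All 6 PEG libraries lie above the 3 Matrigel libraries for Hes1 (lowest PEG library 122 CPM, highest Matrigel library 76.0 CPM) and below them for Dll4 and Gfi1.

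Dll1 encodes a Delta ligand carried by early secretory progenitors (ENSMUSG00000014773, GRCm38 chr17:15367354-15376872, minus strand). It stood at 27.8, 25.3 and 28.1 CPM in the 3 non-degradable PEG libraries, at 36.5, 35.7 and 36.2 CPM in degradable PEG, and at 49.2, 36.2 and 38.9 CPM in Matrigel. The 3 non-degradable PEG libraries were below all 6 others, while degradable PEG overlapped Matrigel. Dll1 fell by 0.61 ± 0.106 (log2, SE) in non-degradable PEG against Matrigel, a 1.53-fold lower level (adjusted p = 0.00307, edgeR quasi-likelihood test). For degradable PEG against Matrigel the log2 fold change was -0.20 with a 95% interval of -0.43 to 0.03 (adjusted p = 0.256). Between non-degradable and degradable PEG it was -0.42 ± 0.106 and did not pass (adjusted p = 0.0981), with groups that did not overlap, as in 19.0% of all tested genes.

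Dll4 encodes the other Delta ligand of the crypt, which acts together with DLL1 to keep stem cells undifferentiated (ENSMUSG00000027314, chr2:119325784-119335962, plus strand). Its levels were 10.2, 7.75 and 10.4 CPM in non-degradable PEG, 9.86, 9.35 and 8.68 CPM in degradable PEG, and 17.6, 13.1 and 12.6 CPM in Matrigel. Every PEG library was below every Matrigel library, and the 2 PEG matrices overlapped each other. On the log2 scale Dll4 fell by 0.61 ± 0.156 in non-degradable PEG (adjusted p = 0.0220) and by 0.63 ± 0.156 in degradable PEG (adjusted p = 0.0224, edgeR quasi-likelihood test). The difference between the PEG matrices was 0.02 with a 95% interval of -0.32 to 0.37 (adjusted p = 0.958). Without Matrigel replicate 1 the log2 fold changes were -0.45 in non-degradable PEG (adjusted p = 0.0773) and -0.47 in degradable PEG (adjusted p = 0.0791). The call in non-degradable PEG was also lost without its replicate 2 (adjusted p = 0.0668), and that in degradable PEG without its replicate 2 (adjusted p = 0.0593) or its replicate 3 (adjusted p = 0.0788).

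Jag1 encodes a Jagged ligand (ENSMUSG00000027276, chr2:137081456-137116644, minus strand). It stood at 26.9, 27.5 and 29.8 CPM in non-degradable PEG, at 26.0, 20.5 and 24.3 CPM in degradable PEG, and at 21.9, 23.4 and 20.1 CPM in Matrigel. The 3 non-degradable PEG libraries were above all 6 others, in the opposite order to Dll1. Jag1 rose by 0.36 ± 0.100 (log2, SE) in non-degradable PEG against Matrigel (adjusted p = 0.0310, edgeR quasi-likelihood test), but that call was lost in 5 of 9 fits that each left out 1 library. The adjusted p was 0.0818 without Matrigel replicate 1, 0.102 without Matrigel replicate 3, and 0.0612, 0.0584 and 0.123 without non-degradable PEG replicate 1, 2 or 3. Degradable PEG differed from Matrigel by a log2 fold change of 0.11 with a 95% interval of -0.11 to 0.33 (adjusted p = 0.514). The PEG matrices differed by 0.25 with an interval of 0.03 to 0.47 (adjusted p = 0.289).

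Read per kilobase of exon, with the union of all annotated exons of a gene as its length, the balance of these ligands also differed by matrix. The Dll1 level was 1.43, 1.27 and 1.301 times the Jag1 level in the non-degradable PEG libraries. It was 1.94, 2.3995 and 2.05 times in degradable PEG and 3.10, 2.13 and 2.67 times in Matrigel. The ratio was lowest in the 3 non-degradable PEG libraries, and degradable PEG overlapped Matrigel. The ratio is a description of each library, and no test was made of it.

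The receptors differed less. Notch1, the main receptor of crypt stem cells together with Notch2, lies at chr2:26457903-26516663 on the minus strand (ENSMUSG00000026923). It stood at 106, 103 and 105 CPM in non-degradable PEG, at 128, 109.7 and 102 CPM in degradable PEG, and at 134, 114 and 112 CPM in Matrigel. The non-degradable PEG libraries were all below the Matrigel libraries, as for 21.6% of all tested genes, yet the log2 fold change of -0.20 ± 0.0938 did not pass (adjusted p = 0.164, edgeR quasi-likelihood test). Degradable PEG differed from Matrigel by -0.09 with a 95% interval of -0.29 to 0.12 (adjusted p = 0.592), and between the PEG matrices -0.11 with an interval of -0.32 to 0.09 (adjusted p = 0.606).

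Notch2 (ENSMUSG00000027878, chr3:98013527-98150361, plus strand) stood at 53.2, 51.2 and 50.2 CPM in non-degradable PEG, at 54.4, 41.3 and 46.6 CPM in degradable PEG, and at 50.6, 46.3 and 49.4 CPM in Matrigel. The 3 matrices overlapped. Its log2 fold changes were 0.08 (95% interval -0.12 to 0.29, adjusted p = 0.588) in non-degradable PEG and -0.04 (interval -0.24 to 0.17, adjusted p = 0.826) in degradable PEG, both against Matrigel. The PEG matrices differed by 0.12 (interval -0.09 to 0.33, adjusted p = 0.578).

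Hes1, which encodes the repressor that Notch induces and that holds Atoh1 down, showed the largest rise of the 10 genes in both comparisons with Matrigel (ENSMUSG00000022528, chr16:30064384-30067796, plus strand). It stood at 122, 134 and 162 CPM in non-degradable PEG, at 156, 238 and 224 CPM in degradable PEG, and at 76.0, 66.8 and 61.5 CPM in Matrigel. Every PEG library was above every Matrigel library, and degradable PEG replicate 1 lay within the range of non-degradable PEG. Hes1 rose 2.04-fold in non-degradable PEG against Matrigel (log2 value 1.03 ± 0.155, adjusted p = 0.00135) and 3.03-fold in degradable PEG (1.60 ± 0.156, adjusted p = 1.61e-04, edgeR quasi-likelihood test). Both calls held in all 16 alternative settings, over which the log2 fold change lay between 0.91 and 1.11 for the non-degradable and between 1.48 and 1.76 for the degradable gel.

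Between the PEG matrices Hes1 was lower in the non-degradable one by a log2 fold change of -0.57 ± 0.153 that did not pass (adjusted p = 0.118, edgeR quasi-likelihood test). It passed in 3 of 16 alternatives, the DESeq2 Wald test (adjusted p = 0.0155), no filter on low counts (adjusted p = 0.00330) and the fit without degradable PEG replicate 1 (-0.74, adjusted p = 0.0294). Across its alternatives the adjusted p ran up to 0.355.

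Nrarp encodes a small ankyrin-repeat protein that is induced by Notch and dampens it (ENSMUSG00000078202, chr2:25180758-25183339, plus strand). It stood at 27.9, 25.9 and 31.2 CPM in non-degradable PEG, at 21.3, 23.2 and 26.4 CPM in degradable PEG, and at 24.4, 21.9 and 22.8 CPM in Matrigel. Non-degradable PEG lay above Matrigel in all 3 libraries, as for 21.8% of all tested genes, and degradable PEG overlapped both. The log2 fold change of non-degradable PEG against Matrigel was 0.30 ± 0.100 and did not pass (adjusted p = 0.0636, edgeR quasi-likelihood test). With the replicate number as a block it was 0.29 and passed (adjusted p = 0.0316). In degradable PEG against Matrigel the log2 fold change was 0.04 with a 95% interval of -0.18 to 0.26 (adjusted p = 0.852).

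Hey1, another Notch-induced repressor, had few reads (ENSMUSG00000040289, chr3:8663359-8667256, minus strand). It had 7, 8 and 21 counts in non-degradable PEG, 5, 15 and 14 counts in degradable PEG, and 2, 12 and 12 counts in Matrigel. The groups overlapped, and the 95% interval of the log2 fold change was -0.68 to 1.86 in non-degradable PEG against Matrigel, and -0.72 to 1.84 for degradable PEG. It did not pass in any comparison (adjusted p between 0.517 and 0.987, edgeR quasi-likelihood test).

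The direct targets differed in size of change. The Hes1 level per kilobase of exon was 5.54, 6.55 and 6.57 times that of Nrarp in non-degradable PEG, 9.30, 13.0 and 10.8 times in degradable PEG, and 3.95, 3.86 and 3.41 times in Matrigel. The 3 matrices did not overlap in this ratio. Degradable PEG had the highest ratio and Matrigel the lowest. No test was made of this ratio, and whether the rise of Hes1 reflects Notch signalling was not tested.

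**Figure D2:**
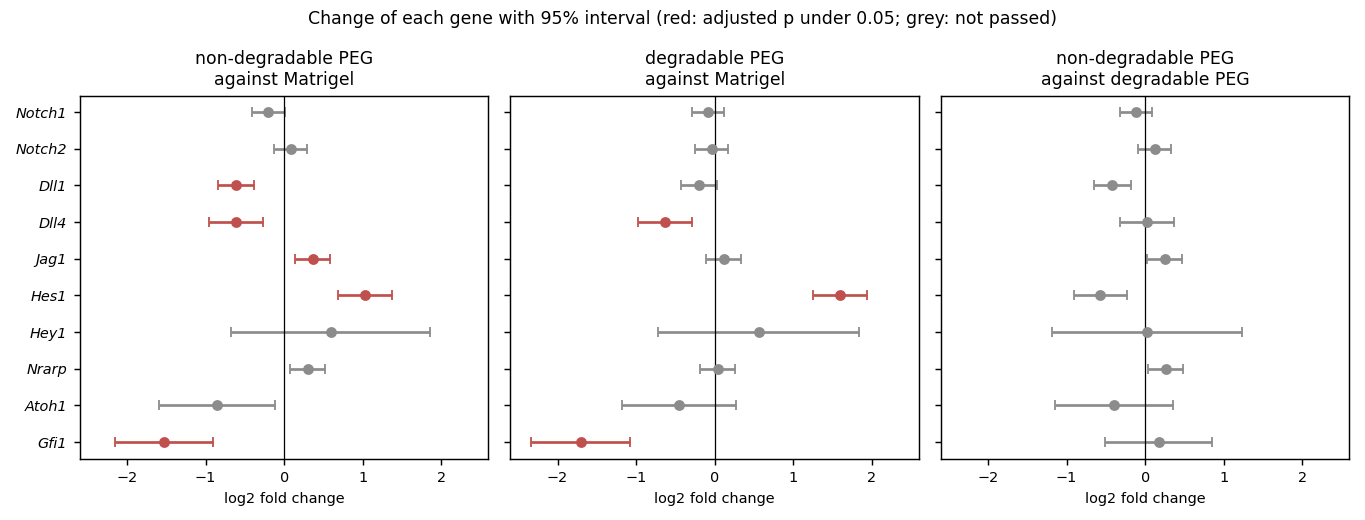
Log2 fold change of each of the 10 genes in the 3 comparisons, with its 95% interval; red marks an adjusted p under 0.05 in edgeR's quasi-likelihood test and grey the rest. Hes1 lies at 1.03 and 1.60 and Gfi1 at -1.54 and -1.71 against Matrigel, and no gene is red between the PEG matrices.

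Atoh1, the master regulator of the secretory lineages, was low in all matrices (ENSMUSG00000073043, chr6:64729125-64731245, plus strand). It stood at 3.67, 2.90 and 2.11 CPM in non-degradable PEG, at 4.65, 3.54 and 3.21 CPM in degradable PEG, and at 8.48, 3.62 and 3.61 CPM in Matrigel. Matrigel replicate 1 was the highest library, and the other 2 Matrigel libraries lay within the range of the PEG libraries. The log2 fold change of non-degradable PEG against Matrigel was -0.85 ± 0.335 and did not pass (adjusted p = 0.102, edgeR quasi-likelihood test). With the replicate number as a block it was -0.79 and passed (adjusted p = 0.0146), while without Matrigel replicate 1 it was -0.33 (adjusted p = 0.446). In degradable PEG against Matrigel it was -0.46 with a 95% interval of -1.18 to 0.27 (adjusted p = 0.412), and without Matrigel replicate 1 it was 0.07 (adjusted p = 0.907). A direction for Atoh1 therefore rested on 1 Matrigel library in degradable PEG.

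Gfi1 encodes a repressor downstream of ATOH1 that favours Paneth and goblet cells over enteroendocrine cells (ENSMUSG00000029275, chr5:107716657-107726036, minus strand). It stood at 0.82, 1.02 and 0.85 CPM in non-degradable PEG, at 0.74, 0.79 and 0.85 CPM in degradable PEG, and at 3.84, 1.79 and 2.20 CPM in Matrigel. All 6 PEG libraries, with 28 to 40 counts each, were below the 3 Matrigel libraries, with 85 to 150 counts each. Gfi1 was lower by 2.90-fold in the non-degradable gel (log2 value -1.54 ± 0.284, adjusted p = 0.00445) and 3.26-fold lower in degradable PEG (-1.71 ± 0.288, adjusted p = 0.00297, edgeR quasi-likelihood test). Without Matrigel replicate 1 the values were -1.16 (adjusted p = 0.00874) and -1.32 (adjusted p = 0.00574). Both calls held in all 15 alternatives that kept the gene. The PEG matrices differed by 0.17 with a 95% interval of -0.51 to 0.85 (adjusted p = 0.822).

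The levels of the repressor and its target were also set side by side. Per kilobase of exon, the Hes1 level was 34.5, 48.2 and 79.8 times the Atoh1 level in non-degradable PEG, 35.0, 70.1 and 72.9 times in degradable PEG, and 9.34, 19.2 and 17.7 times in Matrigel. All 6 PEG ratios were above the 3 Matrigel ratios, and the 2 PEG matrices overlapped. The ratio is given as a description, and no test was made of it.

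Summed levels of secretory cell markers were lower in all 6 PEG libraries than in the 3 Matrigel libraries. The 10 goblet markers, a list that holds Atoh1 itself, summed to 192 to 262 CPM in non-degradable PEG, 139 to 204 CPM in degradable PEG and 579 to 1060 CPM in Matrigel. The 11 Paneth markers summed to 476 to 685 CPM, 655 to 728 CPM and 974 to 1779 CPM in the same order. The 12 enteroendocrine markers summed to 22.5 to 27.2 CPM, 25.6 to 36.5 CPM and 91.7 to 152 CPM, and the 8 tuft markers to 3.60 to 4.04 CPM, 3.52 to 5.10 CPM and 8.499 to 10.2 CPM. A few genes made up much of these sums, such as Fcgbp (89.9 to 788 CPM over all libraries) and Tff3 for goblet cells and Chgb and Neurog3 for enteroendocrine cells. For Paneth cells they included Lyz1 (51.1 to 716 CPM) and Itln1 (202 to 487 CPM). Tested gene by gene, 4 of 9 goblet markers fell in non-degradable PEG and 5 of 9 in degradable PEG, and none rose. Of 10 Paneth markers 7 fell and 1 rose in non-degradable PEG, and 7 fell and 2 rose in degradable PEG. Of 8 enteroendocrine markers 5 fell and 1 rose in non-degradable PEG, and 6 fell in degradable PEG, while 2 of 3 tuft markers fell in each (edgeR quasi-likelihood test, adjusted p under 0.05). Beside these counts, 7.13% of all tested genes fell and 9.71% rose in non-degradable PEG, and 4.79% fell and 7.42% rose in degradable PEG. Retnlb, Il25, Pyy and Sst had no count in any library. Matrigel replicate 1 had the highest sum of all 4 lists and the highest level of 5 of the 10 genes, Notch1, Dll1, Dll4, Atoh1 and Gfi1. In these bulk libraries fewer cells of a type and less RNA per cell cannot be told apart, and the part of cell composition in the changes of Dll1, Dll4, Atoh1 and Gfi1 was not tested.

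Scaled to exon length, Hes1 had the highest level of the 10 genes in every matrix, 68.3 ± 9.99 CPM per kilobase in non-degradable PEG, 101.3 ± 21.5 in degradable PEG and 33.4 ± 3.61 in Matrigel (SD, n = 3 each). In non-degradable PEG, Nrarp (10.96 CPM per kilobase), Notch1 (7.35) and Dll1 (6.41) came next in that order, with ranges that did not overlap. In Matrigel, Dll1 (9.82), Nrarp (8.93) and Notch1 (8.44) followed Hes1 and their neighbouring ranges overlapped, so that Dll1 stood highest among the ligands and receptors there by mean only. Degradable PEG had Nrarp (9.15), Dll1 (8.56) and Notch1 (7.94), also with overlapping neighbours. Notch2, Jag1 and Dll4 lay between 2.41 and 4.81 CPM per kilobase on average in every matrix, and Jag1 was above Dll4 without overlap in both PEG matrices but overlapped it in Matrigel. Atoh1, Gfi1 and Hey1 closed the order in every matrix, and Hey1 was the lowest at 0.0888, 0.0883 and 0.0580 CPM per kilobase in non-degradable PEG, degradable PEG and Matrigel. The length used was the union of annotated exons, which can exceed that of the expressed transcript. The order of the genes depends on that choice.

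**Figure D3:**
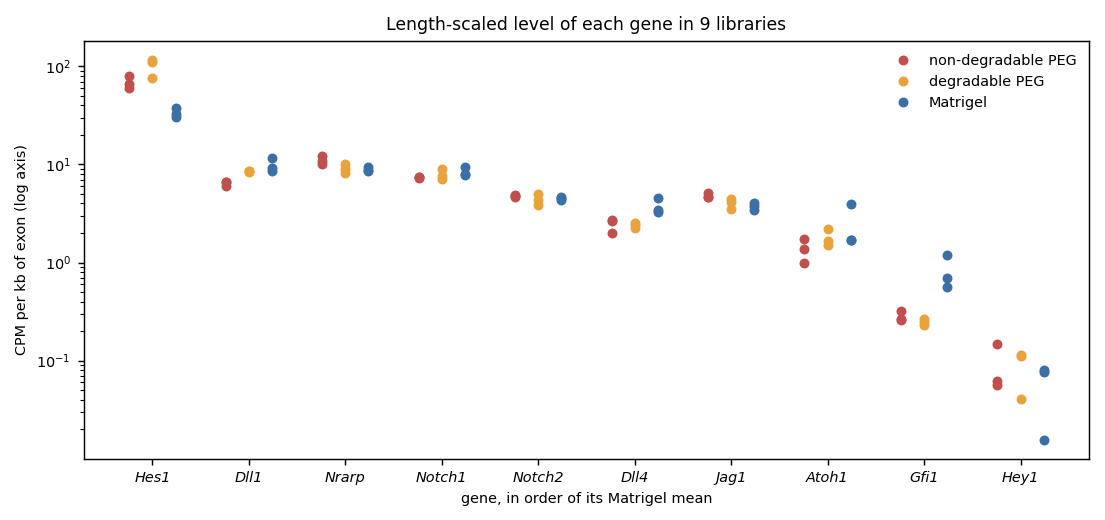
Level of the 10 genes in CPM per kilobase of exon on a log axis, with 1 point per library, for non-degradable PEG, degradable PEG and Matrigel. Hes1 stands highest in each matrix and Hey1 lowest, and Gfi1 lies lower in all 6 PEG libraries than in the 3 Matrigel libraries.

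Between non-degradable and degradable PEG none of the 10 genes passed the edgeR quasi-likelihood test, where 1.28% of all tested genes passed, 0.814% higher and 0.464% lower. An unadjusted p under 0.05 in that test was found for 4 of them, Dll1, Jag1, Hes1 and Nrarp, beside 2203 of all 14870 tested genes. The DESeq2 Wald test passed 2, Dll1 (adjusted p = 0.0222) and Hes1 (adjusted p = 0.0155), beside 3.44% of all tested genes. The libraries of the PEG matrices did not overlap for 2 of the 10 genes, Dll1, which was lower in non-degradable PEG, and Jag1, which was higher, beside 19.0% of all tested genes. The median log2 fold change of the 10 genes was 0.03, beside 0.0033 for all tested genes.

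Other parts of the pathway were read from 6 lists with 95 genes, of which 83 were tested. In non-degradable PEG against Matrigel 8 of the 83 rose and 20 fell (edgeR quasi-likelihood test, adjusted p under 0.05), and in degradable PEG 7 rose and 14 fell. Of all tested genes, 9.71% rose and 7.13% fell in non-degradable PEG, and 7.42% rose and 4.79% fell in degradable PEG, so the share that rose on the lists was near the background. The median log2 fold changes over the lists were -0.08 and -0.11, beside -0.0021 and -0.0163 for all tested genes. Most of the calls, 18 and 14, came from the list of secretory lineage factors. Between the PEG matrices none of the 83 passed, where 1.28% of all tested genes passed. An unadjusted p under 0.05 was found for 13 of the 83, beside 2203 of all 14870 tested genes. The DESeq2 Wald test passed 3 of the 83 (3.61%), which is near the 3.44% of all tested genes. These were Lfng (-0.46, adjusted p = 0.00220), Maml3 (0.38, adjusted p = 0.00333) and Sox9 (-0.32, adjusted p = 0.0202).

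Among the other receptors and ligands, with 5 of 7 genes tested, 1 rose and 2 fell in non-degradable PEG (median log2 fold change -0.07) and 1 rose and 1 fell in degradable PEG (median 0.02). Of all tested genes 9.71% rose and 7.13% fell in the first comparison, and 7.42% rose and 4.79% fell in the second. Jag2, the other Jagged ligand, stood at 26.8, 21.5 and 31.9 CPM in non-degradable PEG, at 20.6, 24.02 and 29.8 CPM in degradable PEG, and at 11.9, 16.2 and 18.2 CPM in Matrigel. It rose by 0.79 ± 0.186 in non-degradable PEG (log2, adjusted p = 0.0155) and by 0.68 ± 0.187 in degradable PEG (adjusted p = 0.0359). These calls were lost without Matrigel replicate 1 (0.63, adjusted p = 0.0542, and 0.53, adjusted p = 0.116), and the other libraries that ended them are named with the processing alternatives. Dner, a Delta-like transmembrane protein, fell by 1.02 and 0.94 on the log2 scale (adjusted p = 0.00436 and 0.00795), and Dlk2, a non-canonical Delta-like protein, fell by 0.95 in non-degradable PEG (adjusted p = 0.00321).

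Of the 15 genes that process the receptor, such as the gamma-secretase subunits and the sheddase Adam10, 1 fell in each PEG matrix and none rose, with median log2 fold changes of 0.02 and -0.06. This is near the share of all tested genes that fell, 7.13% in the non-degradable and 4.79% in the degradable gel. Lfng encodes Lunatic fringe, a glycosyltransferase that modifies Notch and favours its response to Delta over Jagged ligands. It stood at 49.9, 42.7 and 43.2 CPM in non-degradable PEG, at 69.9, 61.4 and 55.9 CPM in degradable PEG, and at 68.3, 58.3 and 64.3 CPM in Matrigel. All 3 non-degradable PEG libraries were below the 6 others, the same order as Dll1. Lfng fell by 0.49 ± 0.0991 in non-degradable PEG against Matrigel (log2, adjusted p = 0.00704), and this call held in all 16 alternatives. Its log2 fold change was -0.03 in degradable PEG against Matrigel (adjusted p = 0.886) and -0.46 between the PEG matrices, which did not pass (adjusted p = 0.0511, edgeR quasi-likelihood test) but did with DESeq2 (adjusted p = 0.00220) and in 5 other alternatives. Pofut1, the O-fucosyltransferase that prepares Notch for ligand binding, fell by 0.35 in degradable PEG (adjusted p = 0.0359) with a call that was lost in 7 of 16 alternatives.

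Among the genes for ligand and receptor turnover, with 13 of 14 tested, 1 rose and 1 fell in non-degradable PEG (median log2 fold change 0.07) and 1 rose in degradable PEG (median -0.10). These counts are near the shares over all tested genes, of which 9.71% rose and 7.13% fell in the non-degradable gel and 7.42% rose in the degradable gel. Neurl1a, an E3 ligase of the Neuralized family, rose by 0.54 in non-degradable PEG (adjusted p = 0.0496) and by 0.73 in degradable PEG (adjusted p = 0.0174), and these calls were lost in 9 and 3 of 15 alternatives. Dtx4, a Deltex ligase, fell by 0.41 in non-degradable PEG (adjusted p = 0.0116, edgeR quasi-likelihood test).

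In the nuclear complex and its corepressors, with 17 of 19 genes tested, none rose, 3 fell in non-degradable PEG and 2 fell in degradable PEG, where 7.13% and 4.79% of all tested genes fell. The median log2 fold change of the list was -0.11 in each. Rbpj, the DNA-binding partner of the cleaved receptor, had log2 fold changes of -0.01 (95% interval -0.17 to 0.14) and -0.02 (interval -0.18 to 0.14). The genes that fell did so by small amounts: Hdac2 by 0.27, Maml1 by 0.36 and Ctbp1 by 0.37 in non-degradable PEG, and Maml3 by 0.42 and Tle1 by 0.24 in degradable PEG. The adjusted p was 0.0152, 0.0371, 0.0465, 0.00695 and 0.0432 in that order (edgeR quasi-likelihood test). Of these the call of Maml3, a Mastermind coactivator, held in all 16 alternatives, while those of Hdac2, Maml1, Ctbp1 and Tle1 were lost in 3, 6, 7 and 11.

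The list of other HES and HEY genes also held the related genes Bhlhe40 and Bhlhe41, which carry neither name. Of its 10 genes 5 were tested and 1, Bhlhe40, rose in each PEG matrix. Of all tested genes 9.71% rose in the non-degradable gel and 7.42% in the degradable gel. The median log2 fold changes of the list were 0.71 and 0.30. Bhlhe40, a related bHLH repressor that also responds to several other signals, stood at 147, 202 and 177 CPM in non-degradable PEG, at 175, 181 and 157 CPM in degradable PEG, and at 42.9, 49.3 and 39.0 CPM in Matrigel. All PEG libraries were above all Matrigel libraries. It rose by 2.01 ± 0.123 in non-degradable PEG (log2, adjusted p = 6.98e-06) and by 1.97 ± 0.123 in degradable PEG (adjusted p = 1.58e-05, edgeR quasi-likelihood test). The tested HES genes of this list, Hes2, Hes5, Hes6 and Hes7, did not pass in either PEG matrix (adjusted p between 0.0728 and 0.646 in the same test).

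Of the 28 secretory lineage factors tested, 13 fell and 5 rose in non-degradable PEG, with a median log2 fold change of -0.36, and 10 fell and 4 rose in degradable PEG, with a median of -0.31. Of all tested genes 7.13% fell and 9.71% rose in non-degradable PEG (median -0.0021), and 4.79% fell and 7.42% rose in degradable PEG (median -0.0163). The 4 with the smallest p in non-degradable PEG were factors of the enteroendocrine lineage. Neurog3, which commits progenitors to that lineage, fell by 2.92, Rfx6 fell by 2.71, Neurod1 fell by 2.22 and Nkx2-2 fell by 2.499 on the log2 scale (adjusted p = 1.78e-04, 1.78e-04, 3.03e-04 and 6.33e-04). In degradable PEG, Neurog3 fell by 2.34 and Rfx6 by 2.21 (adjusted p = 5.56e-04 and 5.19e-04). Pou2f3, the tuft cell factor, fell by 1.27 in degradable PEG (adjusted p = 5.15e-04) and by 1.17 in non-degradable PEG (adjusted p = 6.60e-04, edgeR quasi-likelihood test). Neurog3 and Neurod1 are also on the enteroendocrine marker list and Pou2f3 on the tuft list.

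Not all genes of this list fell: Xbp1, Sox9, Id2, Isl1 and Klf4 rose in non-degradable PEG, and Sox9, Id2, Isl1 and Klf4 in degradable PEG. The list is broad and mixes factors of secretory cells with genes of wider roles, such as Id2, Tcf3 and Cbfa2t2. Of these, Tcf3 and Cbfa2t2 were among the genes that fell in non-degradable PEG. Isl1 had few reads, with 9 to 16 counts per library in non-degradable PEG, 14 to 16 in degradable PEG and 4 to 8 in Matrigel. Sox9, a factor of crypt progenitors and Paneth cells, stood at 216, 240 and 260 CPM in non-degradable PEG, at 286, 318 and 291 CPM in degradable PEG, and at 199, 183 and 175 CPM in Matrigel. It rose by 0.36 ± 0.0844 in non-degradable PEG (log2, adjusted p = 0.0147) and by 0.69 ± 0.0846 in degradable PEG (adjusted p = 5.26e-04), and the 3 matrices did not overlap. Apart from Sox9 these names fall outside the rule for named genes, and the goblet factors Spdef and Klf4 were picked after their values were seen, because they went opposite ways. Spdef is an ATOH1 target and is also on the goblet marker list above. It fell by 2.20 in non-degradable PEG (adjusted p = 0.00810) and by 2.32 in degradable PEG (adjusted p = 0.00775, edgeR quasi-likelihood test). Klf4, which promotes goblet cells and is also induced by many other stimuli, rose by 1.64 (adjusted p = 0.00587) and 1.99 (adjusted p = 0.00234, edgeR quasi-likelihood test).

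**Figure D4:**
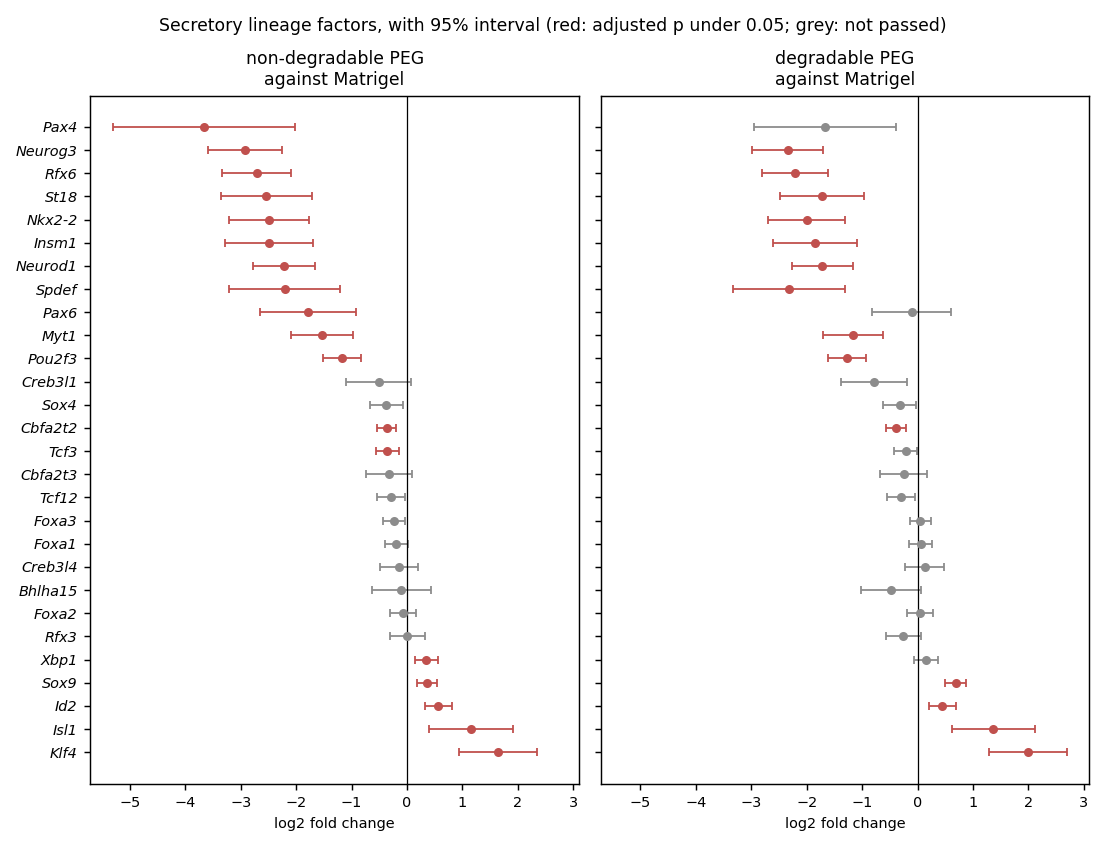
Log2 fold change with its 95% interval for the tested secretory lineage factors, with each PEG matrix against Matrigel in a panel of its own; red marks an adjusted p under 0.05 in edgeR's quasi-likelihood test. In non-degradable PEG 13 of 28 are red below 0 and 5 above, and in degradable PEG 10 are red below 0 and 4 above.

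The genes with the most similar pattern over the 9 libraries were found for Hes1, Dll1 and Atoh1, as the smallest root mean square difference between centred log2 CPM profiles among all tested genes with a symbol and a mean of at least 5 CPM. For Hes1, whose own profile varied by 0.68 about its mean, they were Btg2 (0.159), Myc (0.171), Cbx8 (0.193), Irak2 (0.202) and Irf1 (0.205). For Dll1, which varied by 0.28, they were Zbtb8a (0.0944), Mxd3 (0.0969), Tubb2b (0.113), Zfp358 (0.114) and Cnp (0.119). For Atoh1, which varied by 0.51, the nearest was Ube2cbp (0.164), followed by Far2 (0.234), Xkr5 (0.235), Mmp14 (0.244) and Mex3b (0.246). The likeness is over 9 libraries that share 3 matrices and is a description of them.

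Some of the 10 genes share exon positions with another annotated gene, and the strand setting of the counting is not given in the sources used here. Notch1, Dll1, Dll4, Nrarp and Gfi1 each overlap a transcript on the opposite strand, and Notch2 overlaps 1 on its own strand. The separate counts of these partners stayed between 0 and 83 per library, with the highest for Gm14207 beside Dll4 at 36 to 83. How reads were split at these positions was not tested, and the values of these 6 genes are uncertain to that extent.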

How the data were processed

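The input was raw read counts per gene for each of 9 libraries, as deposited by the authors. Per the labels' protocols, libraries were made with a stranded Illumina TruSeq mRNA kit. Per the submitters' processing notes, the tools were cutadapt 1.3, STAR 2.4.2a and HTSeq 0.6.1 and the build was GRCm38. For the annotation release and strand setting, the sources used here give nothing. Tally rows without a gene were left out (no feature, 7.29% to 11.2% of reads, and ambiguous, 1.09% to 1.16%). Symbols and coordinates came from GENCODE M21 (46005 of 46517 genes matched).

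Counts were fitted once over all 9 libraries with 1 mean per matrix by edgeR 4.0.16 (quasi-likelihood test, TMM scaling, filterByExpr) in R 4.3.3, and p-values were adjusted over 14870 genes. An adjusted p under 0.05 counted as changed. Other tools were limma 3.58.1, DESeq2 1.42.0, data.table (version 1.17.8), Python 3.11.15, pandas 2.3.3 and matplotlib 3.10.9. CPM used the scaled library sizes, and CPM per kilobase the union of exons. A SE was the log2 fold change over the root of the F statistic.

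The 10 genes and all lists were chosen with earlier results of these data known. Named pathway genes were, per list and comparison, the 4 with the smallest p among those that passed. Where none passed, the gene with the highest mean was kept, which between the PEG matrices gave Jag2, Adam10, Mib1, Hdac2, Bhlhe40 and Sox4, with log2 fold changes of 0.11, 0.16, 0.23, -0.08, 0.04 and -0.05. Named like-patterned genes were the 5 nearest per gene, with a mean of at least 5 CPM and log2 CPM with a prior count of 2. Marker lists numbered 11.

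Equal replicate numbers were checked for pairing by the correlation of deviations from group means. For non-degradable PEG and Matrigel it was 0.331, 0.176 and 0.186, all above 0.1. The numbers may therefore pair these libraries, a pairing that comes from the data and not from the labels. The main fit held no replicate block, so calls and p-values treat the libraries as unpaired unless the block is named. In non-degradable PEG against Matrigel, 7 of the 10 genes and 3877 genes in all (26.1%) changed with the block, instead of 5 and 2504. None of the 9 pairs of libraries of the same matrix had counts that agreed within sampling noise. The fit was tested on simulated data for non-degradable PEG against Matrigel with 14708 genes, where it recovered 92 of 100 genes changed 2-fold and 100 of 100 changed 4-fold, with 4 false calls.

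Alternatives were DESeq2 size factors, upper-quartile scaling, the DESeq2 Wald test, no filter, a mean of at least 10 CPM, only the 2 matrices compared, the replicate block and leaving out each library, 16 settings in all.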

Additional observations from a re-analysis of the deposited data

How the results depend on the processing

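Over the alternatives the 10 genes kept direction and side of the threshold in 433 cases, gained a call in 15, lost one in 10 and turned sign in 13, and the named pathway genes did so in 426, 0, 54 and 6. Hes1 and Gfi1 against Matrigel, and Dll1 in non-degradable PEG against Matrigel, kept their calls wherever they were fitted. Atoh1, Gfi1 and Hey1 were not tested with a mean of at least 10 CPM.

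For non-degradable PEG against Matrigel, 1511 genes changed with a mean of at least 10 CPM, which tests fewer genes, and 12 pathway genes instead of 28. Leaving out 1 library gave 1189 to 3247 changed genes, 17 to 31 pathway genes and 3 to 6 of the 10 genes, with 3 both without Matrigel replicate 1 and without replicate 2 of non-degradable PEG. The changed genes numbered 1452 and 1636 without Matrigel replicate 1 and 2, and 1656 and 1189 without replicate 1 and 3 of non-degradable PEG, the last with 17 pathway genes. Nrarp also passed with DESeq2 (adjusted p = 0.0403), with only the 2 matrices (0.0400) and without degradable PEG replicate 1 (0.0496), and Atoh1 with DESeq2 (0.0489) and with no filter (0.0217). Jag2 and Dtx4 lost their calls without non-degradable PEG replicate 3 (0.0670 and 0.0535).

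For degradable PEG against Matrigel, 948 genes and 8 pathway genes changed with a mean of at least 10 CPM, instead of 1815 and 21. Leaving out 1 library gave 1086 to 2395 changed genes, 16 to 29 pathway genes and 2 to 3 of the 10 genes. The changed genes numbered 1086 and 1177 without Matrigel replicate 1 and 3, and 1178 without replicate 3 of degradable PEG. Jag2 lost its call without Matrigel replicate 2 (0.0724), non-degradable PEG replicate 1 (0.0523) and degradable PEG replicate 2 (0.0733) or 3 (0.131).

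Between the PEG matrices 190 genes changed, against 512 with DESeq2, 521 with no filter, 91 with a mean of at least 10 CPM and 19 to 242 when 1 library was left out, namely 19 and 117 without degradable PEG replicate 2 and 1, and 28 and 124 without replicate 1 and 2 of non-degradable PEG. Of the 10 genes 2 passed with DESeq2 and with no filter and 1 with only the 2 matrices. Of the pathway genes 3 passed with DESeq2 and with no filter and 1 with upper-quartile scaling. Leaving out 1 library gave 0 to 1 for both. Dll1 passed with no filter (0.0222), with only the 2 matrices (0.0372) and without Matrigel replicate 1 (0.0205).

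The replicate block gave 3877 changed genes in non-degradable PEG against Matrigel and 2783 in degradable PEG against Matrigel. Between the PEG matrices it gave 542 changed genes, 4 pathway genes and 1 of the 10 genes, Dll1 (adjusted p = 0.0355). For degradable PEG against Matrigel, equal numbers correlated by 0.258, 0.0712 and 0.226, and between the PEG matrices by 0.288, 0.0197 and 0.511. Unequal numbers correlated by -0.454 to 0.257 over all comparisons. The equal numbers were not all above 0.1, so they were not taken to pair these libraries. Whether these libraries share a source is not given by the labels and was not tested. The block ended no call among the 10 genes.

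Some log2 fold changes turned sign, among them Hey1 in non-degradable PEG against Matrigel (0.59 with all libraries) and Atoh1 in degradable PEG against Matrigel (-0.46). With upper-quartile scaling Notch2 in degradable PEG against Matrigel was 0.000311, and between the PEG matrices Dll4 was -0.00172 and Hey1 -0.00253 (log2). When 1 library was left out, Hey1 in non-degradable PEG against Matrigel ran from -0.00559 to 0.87. In degradable PEG against Matrigel, Notch1 ran from -0.18 to 0.00083, Notch2 from -0.15 to 0.053, Nrarp from -0.051 to 0.11 and Atoh1 from -0.67 to 0.072. Between the PEG matrices, Dll4 ran from -0.051 to 0.15, Hey1 from -0.57 to 0.25, Jag2 from -0.037 to 0.26, Bhlhe40 from -0.075 to 0.14 and Sox4 from -0.16 to 0.12. The cause of these shifts was not tested. Hey1 had 2 to 21 counts per library.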
